A study of Mus musculus with 37 samples.

Results

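The genes described here are 42 interferon-stimulated genes and the 4 chains of the type I and type II interferon receptors. They were taken as a list of gene symbols and matched by Ensembl identifier to the count and TPM tables of 21975 genes, in which all 46 were found. By their roles they comprised 4 receptor chains, 9 transcriptional regulators or nucleic acid sensors, 22 antiviral effectors or other type I response genes, 6 guanylate-binding proteins (GBPs) and 5 immunity-related GTPases (IRGs). In 45 of the 46 genes at least 1 library held more than 3 counts. The exception was Mx1, a dynamin-like antiviral GTPase, which held at most 3 counts in all 37 libraries and is known to be defective in many inbred mouse strains.

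Type I interferons bind Ifnar1 and Ifnar2 and signal through a complex that includes Stat2 and Irf9 and binds the interferon-stimulated response element (ISRE) in target promoters. Interferon-gamma binds Ifngr1 and Ifngr2, acts on promoters with the gamma-activated sequence (GAS) and induces Irf1. The GBPs and IRGs are GTPases that act on intracellular vacuoles and are strongly induced by interferon-gamma, and astrocytes are known to carry both receptors and to respond to both kinds of ligand.

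Astrocytes were collected from the hippocampus 4 months after controlled cortical impact (CCI) over the right parietal cortex of adult male mice, which the labels call WT CD31 and the study's methods CD1. Injured mice with repeated seizures on video EEG formed the PTE+ group and injured mice without post-traumatic epilepsy the PTE- group, while sham mice had the craniectomy and the electrodes without an impact. Astrocytes were captured on beads that bind the surface antigen ACSA-2, and the ipsilateral (injured) and contralateral hippocampus of a mouse gave separate libraries. The contralateral libraries numbered 5 PTE+, 10 PTE- and 5 sham, the ipsilateral ones 4 PTE+, 8 PTE- and 5 sham, and 17 mice (4 PTE+, 8 PTE- and 5 sham) had both.

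Library totals ran from 25371887 to 59846479 expected counts. All 12 astrocyte markers were above 3 counts in all 37 libraries. Between 9020 and 15545 genes were detected in a library, and the libraries with the fewest were ipsilateral PTE- a8_11 (9020), ipsilateral sham a9_9 (10886) and ipsilateral PTE- a8_14 (11271). In a8_11 the summed TPM of the astrocyte markers was 7505, against 14420 or more in the other 36 libraries. Microglia markers summed to between 27.07 and 1477 TPM. In these bulk samples fewer cells of a type and less RNA per cell cannot be told apart.

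The promoters carry the sequence elements through which the genes are known to be induced, and those of the genes discussed below are shown for that reason. RefSeq promoters (250 bases before to 50 after the start, GRCm38.p6) were found for 37 of the 46 genes. The ISRE core was searched on both strands as a GAAA repeat, that is GAAA, any 2 bases and GAAA again, and GAS as TTCNNNGAA, which reads the same on both strands. The ISRE core was present in 23 of 33 promoters of the interferon-stimulated genes (69.7%), against 1079 of 27025 promoters of all genes (3.99%). It was present in 5 of 5 GBP promoters, 3 of 4 IRG promoters, 11 of 17 effector promoters and 4 of 7 promoters of regulators and sensors, and in 0 of 4 receptor promoters. GAS matched in 9 of 33 promoters of the interferon-stimulated genes (27.3%) and in 2 of 4 receptor promoters (Ifnar1 and Ifnar2), against 9.55% of all promoters. A match describes letters in this window and does not show that a factor was bound.

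In the stretches below the capitals mark every whole ISRE match, except in Irf1, where they mark GAS. The stretches of Bst2, Igtp and Irgm2 also hold a GAS match, which is not marked. Effectors come first (Isg15, a ubiquitin-like modifier; Ifit3, an RNA-binding adaptor; Bst2, a membrane tether of budding virus; Cxcl10, a chemokine), then the regulators Stat2 and Irf1, then GBPs and IRGs, each 5′ to 3′ on the gene's own strand.
Isg15, chr4:156200862-156200921, minus strand: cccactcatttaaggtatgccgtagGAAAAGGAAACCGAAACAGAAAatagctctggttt
Ifit3, chr19:34583348-34583407, plus strand: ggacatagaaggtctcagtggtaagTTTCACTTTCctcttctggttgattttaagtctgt
Bst2, chr8:71537568-71537627, minus strand: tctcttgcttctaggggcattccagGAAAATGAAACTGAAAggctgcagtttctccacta
Cxcl10, chr5:92349068-92349127, minus strand: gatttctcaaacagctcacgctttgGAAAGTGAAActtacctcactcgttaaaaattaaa
Stat2, chr10:128270251-128270310, plus strand: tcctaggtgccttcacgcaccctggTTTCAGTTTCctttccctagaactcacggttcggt
Irf1, chr11:53769899-53769957, plus strand: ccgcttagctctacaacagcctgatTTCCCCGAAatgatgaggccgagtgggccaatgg
Gbp2, chr3:142620579-142620638, plus strand: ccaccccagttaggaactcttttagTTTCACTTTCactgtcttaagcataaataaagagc
Gbp2b, chr3:142594685-142594744, plus strand: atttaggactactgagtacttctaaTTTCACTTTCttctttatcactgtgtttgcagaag
Gbp3, chr3:142559974-142560033, plus strand: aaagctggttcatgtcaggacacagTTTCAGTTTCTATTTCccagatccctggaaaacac
Irgm1, chr11:48871421-48871475, minus strand: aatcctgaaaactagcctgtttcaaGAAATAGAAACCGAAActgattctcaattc
Igtp, chr11:58199497-58199555, plus strand: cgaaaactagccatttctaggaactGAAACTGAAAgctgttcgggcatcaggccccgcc
Irgm2, chr11:58214888-58214947, plus strand: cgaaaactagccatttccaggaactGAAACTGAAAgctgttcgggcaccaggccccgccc
Isg15 held 3 overlapping matches, and Bst2, Gbp3 and Irgm1 held 2 each. The stretches of Igtp and Irgm2, neighbours on chromosome 11, were identical at 57 of 59 bases.

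The level of each gene was compared between genes on the TPM scale, which takes transcript length into account. Ifi27, a mitochondrial protein gene induced by type I interferon, was the highest of the 42 interferon-stimulated genes in 37 of 37 libraries, with a mean of 259.2 TPM (109.15 to 552.65), above 97.5% of all genes. The other interferon-stimulated genes averaged between 0.002432 TPM (Mx1) and 49.95 TPM (Irgm1). The spread between libraries was wide. The coefficient of variation (CV) was 33.3% for Ifi27, 47.0% for Irgm1, 109% for Ifit3 and 257% for Cxcl10, and it reached 394% for Apol9a, an apolipoprotein L gene.

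The 4 receptor chains were detected (above 3 counts) in 98.0% of library values. Ifnar2 was highest with 105.4 TPM on average, followed by Ifngr1 with 64.78 TPM, Ifnar1 with 45.43 TPM and Ifngr2 with 30.73 TPM. In single libraries Ifnar2 was above Ifngr1 in 34 of 37, Ifngr1 above Ifnar1 in 27 and Ifnar1 above Ifngr2 in 26, so the order of the lower 3 chains was not constant. The chains also had near-complete gaps. Ifnar1 was at 0.02111 CPM (the count relative to the library size scaled by TMM) in contralateral sham a8_16 against 94.77 to 138 CPM in the other 4 sham libraries, and Ifngr2 was at 0.1018 CPM in contralateral PTE- a8_14 against 23.49 to 66 CPM in the other 9. Reads of Ifnar2 and the overlapping Gm21970 on the same strand could have been divided between them in counting.

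Among the regulators, Irf1, the transcription factor induced by interferon-gamma, averaged 39.3 TPM, and Irf9 and Stat2, partners in the type I complex, averaged 22.66 and 15.84 TPM. Irf9 and Stat2 were above 3 counts in all 37 libraries and Irf1 in 35. Ddx58, the RNA sensor RIG-I, averaged 12.47 TPM and was also above 3 counts in all 37, while Zbp1, a sensor of Z-form nucleic acids, was above 3 counts in 10 and Ifi211, of the family of DNA-sensing p200 proteins, in 7. Among the effectors, Ifit3 averaged 41.08 TPM and Ifi35, an interferon-induced leucine zipper protein gene, 31.8 TPM. Isg15 averaged 14.4 TPM and was above 3 counts in 30 libraries.

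The leading GBPs were Gbp2 with 18.1 TPM, Gbp7 with 16.78 TPM and Gbp3 with 12.42 TPM on average, and Gbp2b, a near relative of Gbp2 beside it on chromosome 3, averaged 1.509 TPM. The order of Gbp2 and Gbp7 was not constant, since Gbp2 was the higher in 12 of 37 libraries. Irgm1, a regulatory IRG, averaged 49.95 TPM and was above Igtp (27.27 TPM) in 31 of 37 libraries. Ifi47, another IRG, averaged 6.752 TPM with a CV of 206%. Igtp and Irgm2 overlap on the same strand, as do Ifi47 and Olfr56, and Irf9 and Rnf31, so reads in the overlap could have been divided in counting. The gene spans of Cxcl10 and Irf7 overlap those of Art3 and Phrf1 on the opposite strand, and the library kit does not mark strand, so reads from an overlap cannot be told apart by strand.

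**Figure D1:**
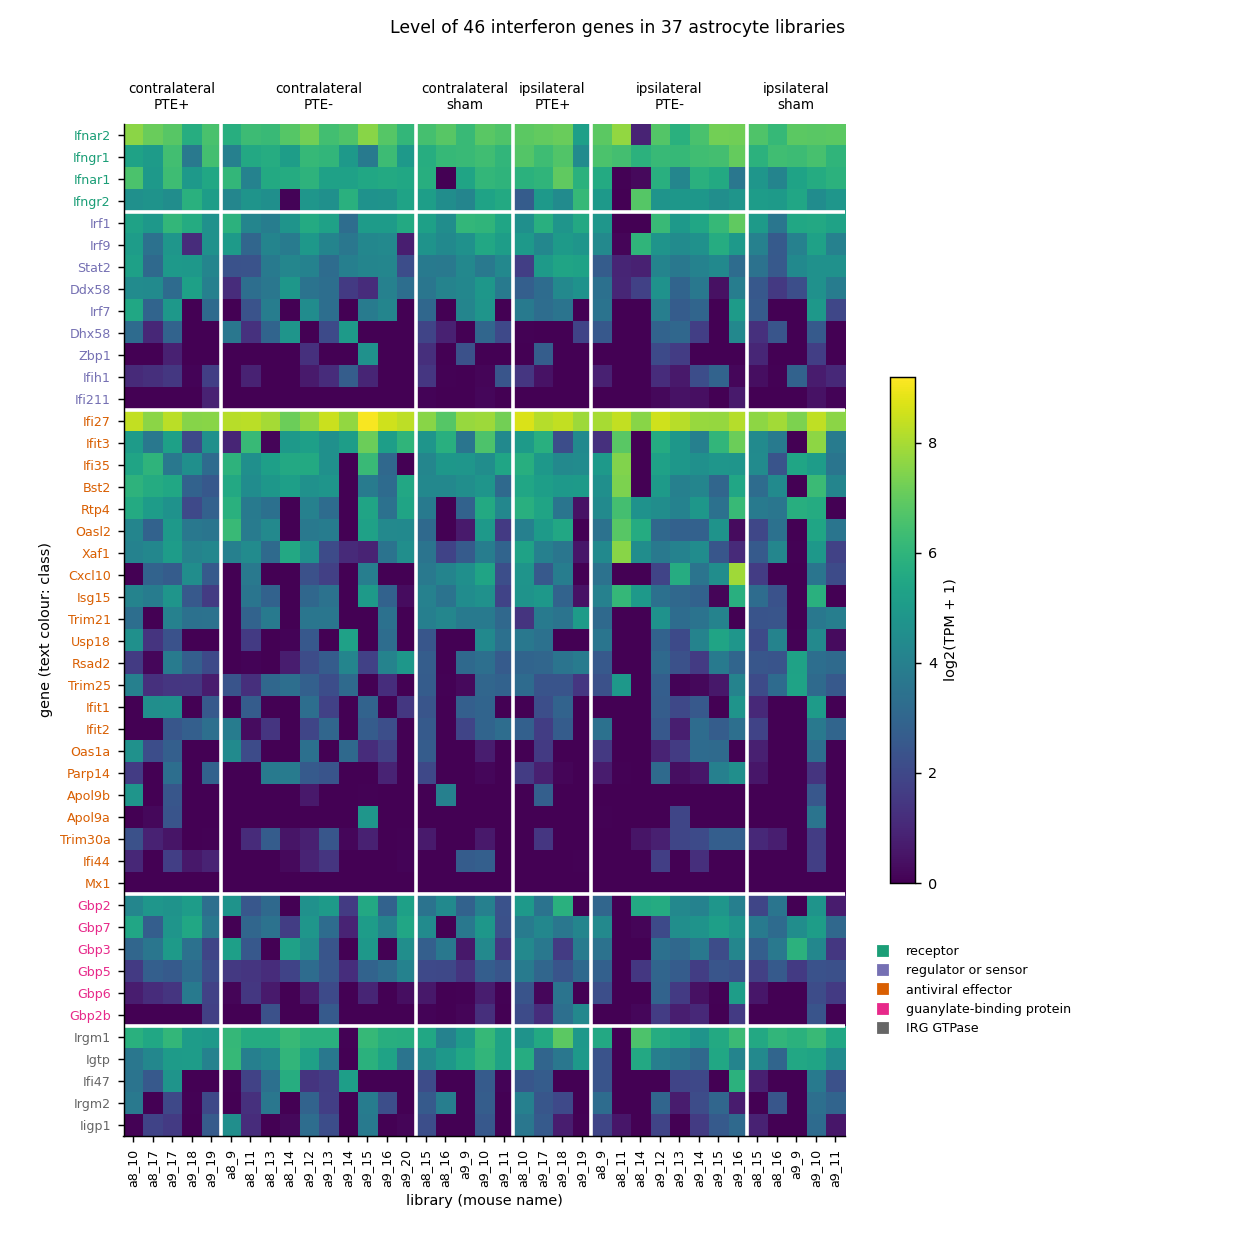
Level of each of the 46 genes (lines, coloured by role) in each of the 37 libraries (columns, by group and mouse), as log2(TPM + 1). The line of Ifi27 is the brightest of the 42 interferon-stimulated genes throughout, and Mx1 is dark throughout. In ipsilateral PTE- a8_11 the GBPs and IRGs are dark while Ifi27, Ifi35, Bst2 and Xaf1 are bright.

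A gene was often present in one library and absent from the next. Of all values, 80.2% of those of the GBPs, 74.1% of those of the IRGs, 70.9% of those of the regulators and sensors and 66.3% of those of the effectors were above 3 counts, against 59.4% of the values of all genes. Between 16 and 45 of the 46 genes were above 3 counts in a library, with 16 in ipsilateral PTE- a8_11 and 45 in ipsilateral sham a9_10. This number rose with the number of genes detected in the library. Spearman's rho was 0.854 over the 20 contralateral and 0.782 over the 17 ipsilateral libraries, as a description, since both numbers come from the same libraries.

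Detection was also compared between the hemispheres of a mouse. Over the 17 mice with both libraries and the 42 interferon-stimulated genes, a gene was above 3 counts in both hemispheres in 416 of 714 cases, in neither in 118, and in only 1 in 180 (25.2%, against 13.9% over all genes of the tables). Of the 596 cases above 3 counts in at least 1 hemisphere, 30.2% were in only 1, against 20.8% over all genes. The cases in 1 hemisphere were nearly even, with 91 contralateral and 89 ipsilateral. For the receptor chains the share was 3 of 68 (4.41%), and for the IRGs it was 29.4%. In ipsilateral PTE+ and ipsilateral sham libraries, 1 library held over 50% of the summed CPM of 25 of 45 genes in each group (55.6%, against 40.7% and 31.6% of all genes with counts there). In contralateral PTE- it did so for 9 of 46 genes (19.6%, all genes 27.7%).

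**Figure D2:**
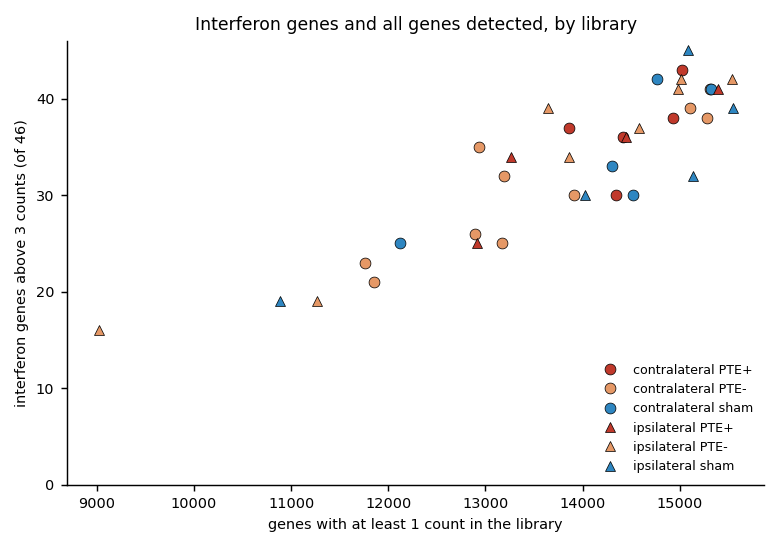
Interferon genes above 3 counts (of 46) in a library against the number of genes with at least 1 count in it. The library with the fewest of both, an ipsilateral PTE- library with 9020 genes, held 16 of the 46, and the highest number was 45, in an ipsilateral sham library.

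The highest interferon gene expression among controls belonged to 1 mouse, in both hemispheres. The summed TPM of 41 interferon-stimulated genes (without Ifi27, which would outweigh the rest) was 776.9 in the contralateral library of sham a9_10, against 328.3 to 393.7 in the other 4 contralateral sham libraries. In its ipsilateral library the sum was 1020 TPM, against 254 to 446.5 in the other 4. The contralateral sham group summed to 445 ± 187 TPM (SD, n = 5), and to 362 ± 31.5 TPM without this mouse. The ipsilateral sham group summed to 453 ± 327 TPM (SD, n = 5), and to 311 ± 91.1 TPM without it.

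Of the interferon-stimulated genes detected in the group, a9_10 had the highest value for 23 of 40 contralateral (57.5%) and for 29 of 41 ipsilateral (70.7%), while it had the highest value for 19.2% and 22.5% of all detected genes. Ifit3 was at 187.2 CPM in its ipsilateral library and between 0 and 26.44 CPM in the other 4. Contralateral, Ifit3 was at 91.53 CPM in a9_10 and between 11.18 and 61.62 CPM in the others. Microglia markers were also highest of the sham libraries in this mouse, with 917.1 TPM contralateral (164.3 to 539.5 in the others) and 1432 TPM ipsilateral (134.4 to 773), all 12 of them above 3 counts in both libraries. Its T cell markers summed to 41.08 TPM contralateral (others 0 to 19.93) and 47.54 TPM ipsilateral, where a9_9 had 50.33 TPM. T cell markers above 3 counts numbered 5 in each library of a9_10 and 1 in ipsilateral a9_9. The part of these cells in the interferon gene levels was not tested.

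The injured groups overlapped the sham range. The sum was 500 ± 179 TPM (SD, n = 5) in contralateral PTE+, 456 ± 164 TPM (n = 10) in contralateral PTE-, 508 ± 92.6 TPM (n = 4) in ipsilateral PTE+ and 599 ± 301 TPM (n = 8) in ipsilateral PTE-. The ipsilateral PTE- spread came largely from 2 libraries, a9_16 with 1171 TPM and a8_11 with 942.5 TPM. In a9_16, Cxcl10 (117.5 CPM) and Ifi47 (52.48 CPM) were the highest of the group, and microglia markers summed to 1109 TPM and T cell markers to 70.85 TPM. Only 2 of the T cell markers were above 3 counts in a9_16. In a8_11 the effectors with Ifi27 summed to 1271 TPM, while the 6 GBPs summed to 0.02 TPM and the 5 IRGs to 0.5 TPM. Microglia markers in a8_11 summed to 1225 TPM, with 7 of the 12 above 3 counts.

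**Figure D3:**
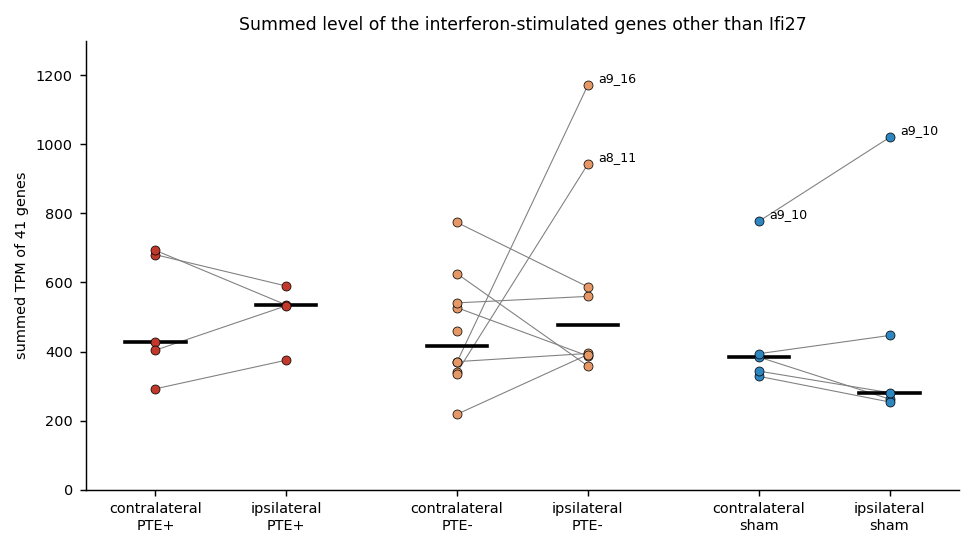
Summed TPM of 41 interferon-stimulated genes (without Ifi27) in each library, by group, with a bar at the median and lines joining the hemispheres of 1 mouse. Sham a9_10 stands at 776.9 TPM contralateral and 1020 TPM ipsilateral, above the other sham libraries, and the groups overlap.

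The study asked which astrocyte genes differed with seizures after the same injury, and the comparison of PTE+ with PTE- libraries addresses this for the interferon genes. Contralateral, none of the 40 genes tested reached an unadjusted p under 0.05 in edgeR (0 of 40, against 2.21% of all genes), nor an adjusted p under 0.05 (0 of 40, against 0.00683% of all genes), nor did any with DESeq2 after adjustment. The fitted log2 fold changes had a median of 0.05 (all genes -0.05), with 22 of 40 higher in PTE+. The 5 IRGs were all lower in PTE+ in this fit, with a median of -0.38 and no p under 0.05. Their median was 0.00 with limma on log2(TPM + 1), and -0.86 without PTE+ a9_17. Without PTE+ a8_10 the median of the 40 was -0.26.

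Igtp, an IRG that acts on pathogen vacuoles, was at 13.75, 18.64, 26.01, 34.69 and 35.12 CPM in the 5 contralateral PTE+ libraries. In PTE- libraries it ran from 0 to 94.74 CPM with a median of 35.8 CPM, and in sham it was at 23.66, 38.61, 38.77, 52.55 and 74.66 CPM. The PTE+ values overlapped both groups, and 2 PTE- libraries (0 and 11.03 CPM) lay below all of them. Against PTE- the difference on log2(CPM + 1) was -0.10 (2-sided exact permutation p = 0.929). Against sham it was -0.79 (2-sided exact permutation test, p = 0.0476, unadjusted), while edgeR gave p = 0.395. Exact tests were run for 189 pairs of a named gene and a comparison, and 7 had p under 0.05 without adjustment. By chance up to about 1 in 20 such tests pass, and 7 of 189 is not above that.

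Stat2, the partner of Irf9 in the type I complex, was at 22.44, 32.55, 42.31, 59.64 and 60.64 CPM in contralateral PTE+. In PTE- it ran from 0.5536 to 48.16 CPM with a median of 21.79 CPM, and in sham it was at 12.31, 13.18, 26.89, 29.03 and 29.45 CPM. The PTE+ libraries lay toward the upper end and overlapped both groups. The log2 fold change against PTE- was 0.92 with an SE of 0.58 (edgeR p = 0.129), and exact permutation on log2(CPM + 1) gave p = 0.0763 against PTE- and p = 0.0556 against sham. Ifit3, the highest effector after Ifi27, averaged 20.95 ± 12.64 CPM (SD, n = 5) in PTE+, 51.91 ± 55.35 CPM (n = 10) in PTE- and 41.96 ± 33.91 CPM (n = 5) in sham. The SD of PTE- exceeded its mean, and the log2 fold change of PTE+ against PTE- was -1.31 with an SE of 0.97 (edgeR p = 0.191).

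Against sham, the contralateral libraries had 1 gene of 40 under 0.05 in PTE- (all genes 1.54%) and 0 of 40 in PTE+ (all genes 1.23%), and edgeR and DESeq2 gave 0 after adjustment in both. These comparisons share the sham libraries, and their values are not independent. The median log2 fold change was 0.29 in PTE- (25 of 40 higher, all genes 0.07) and 0.30 in PTE+ (27 of 40 higher, all genes 0.03). The PTE- median was -0.05 with voom and -0.10 with limma on log2(TPM + 1), with 45% of the genes higher in each. The 5 GBPs tested were higher than sham in both, with a median of 0.83 in PTE- and 0.94 in PTE+, and no GBP had a p under 0.05. The PTE- median was 0.21 with limma on log2(TPM + 1), and 1.23 without sham a8_16. Gbp2 averaged 34.47 ± 14.42 CPM (SD, n = 5) in PTE+, 31.09 ± 27.9 CPM (n = 10) in PTE- and 17.54 ± 10.89 CPM (n = 5) in sham, with overlapping values. Microglia markers were higher than sham in 11 of 12 cases in PTE- (median 0.82) and in 10 of 12 in PTE+ (median 0.75), and endothelial markers in 8 of 8 in PTE+ (median 1.04). By library, however, the summed TPM of microglia markers had a median of 465.6 in PTE- (27.07 to 1477) and 480.6 in sham (164.3 to 917.1). In PTE+ the median was 549.2. The part of microglia and endothelial cells in the GBP levels was not tested.

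Ifi27 was the contralateral gene with p under 0.05 between PTE- and sham. It stood at 39.18, 50.67, 75.87, 84.28 and 95.99 CPM in sham, and from 55.14 to 281.3 CPM with a median of 114.6 CPM in PTE-. Of the 10 PTE- libraries 7 were above every sham library, and 3 lay within the sham range. The log2 fold change was 0.93 with an SE of 0.37 (p = 0.0186 and adjusted p = 1 in edgeR), and exact permutation on log2(CPM + 1) gave p = 0.0476. Without sham a8_16, the lowest library, the p was 0.0559. In PTE+ it was at 53.56, 76.25, 90.21, 107.6 and 122.2 CPM, between the other groups.

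Cxcl10, a chemokine that attracts activated T cells, went the other way in the contralateral hippocampus. It was at 1.689, 6.856, 10.81, 13.37 and 20.29 CPM in the 5 sham libraries. In PTE- it was at 0 in 6 of 10 libraries and at 1.417, 2.066, 9.687 and 11.7 CPM in the rest. Sham libraries were mostly higher, with overlap. The difference on log2(CPM + 1) was -2.25 (2-sided exact permutation p = 0.00999, unadjusted), while edgeR gave a log2 fold change of -2.09 with an SE of 1.74 and p = 0.241. The study, which used DESeq2, reported Cxcl10 as differing between sham and PTE- in the ipsilateral hippocampus and not in the contralateral one. Between ipsilateral PTE- and sham neither edgeR nor the exact permutation test gave Cxcl10 an unadjusted p under 0.05 here. Both tests differ from the study's method, so they are not a like-for-like check of its call.

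Ipsilateral, between PTE+ and PTE-, 1 of 42 genes had p under 0.05 (all genes 1.75%) and 0 had an adjusted p under 0.05 in edgeR or DESeq2. The fitted values differed by role, with no test of that difference. The effectors had a median of -0.82, with 3 of 18 higher in PTE+, while the GBPs had a median of 0.29 with 4 of 6 higher and the IRGs 0.39 with 4 of 5 higher. The effector median rested on 1 library, since without PTE- a8_11 it was 0.08, and the IRG median was -0.53 without PTE+ a8_10. Microglia markers also stood lower in PTE+, in 10 of 12 cases, with a median of -0.83, and their part in the effector median was not tested.

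Ifi211 was the ipsilateral gene with p under 0.05. It was above 3 counts in 4 of 8 PTE- libraries, at 0.1403, 0.3085, 0.4719 and 0.5746 CPM, and at 0 in the other 4. All 4 PTE+ libraries held at most 3 counts. PTE+ was therefore at least 3.31-fold lower than the PTE- mean of 0.187 ± 0.235 CPM, taking 3 counts per library as the floor (edgeR p = 0.0389, adjusted p = 1). All of these values are very low. Ifi211 passed the filter on low counts only through PTE- and sham libraries, so its p is not independent of which group was high. With single libraries left out, 9 of 12 fits tested the gene, with edgeR p between 0.03 and 0.0928. In the other fits it did not pass the filter.

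Gbp2b stood at 2.012, 5.74, 15.75 and 28.77 CPM in the 4 ipsilateral PTE+ libraries. In PTE- it was at 0 in 3 of 8 libraries and reached 3.294 CPM, and in sham it was at 0 in 4 of 5 and at 7.248 CPM in a9_10. The lowest PTE+ library lay within the PTE- range, and the lower 2 PTE+ libraries lay below sham a9_10. The study had listed Gbp2b among the top upregulated genes of ipsilateral PTE+ against PTE- in these same libraries. A test of that contrast here is therefore not independent of how the gene was picked. The tests against sham and between hemispheres that follow reuse the same ipsilateral PTE+ libraries, so they are not independent of the pick either. Against PTE- the difference on log2(CPM + 1) was 2.42 (2-sided exact permutation p = 0.00808, unadjusted), while edgeR gave p = 0.12. Against sham it was 2.72 (2-sided exact permutation p = 0.0317, unadjusted), while edgeR gave p = 0.211. In the injured mice with both libraries, Gbp2b was higher ipsilateral in 8 of 12 (mean difference 1.22 on log2(CPM + 1), exact sign-flip p = 0.0352), and edgeR gave p = 0.476. Contralateral it was above 3 counts in 6 of 20 libraries, ipsilateral in 10 of 17. Gbp2 was at 0.03931 CPM in PTE+ a9_19, the library with the highest Gbp2b.

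Stat2 and Ifnar1 also varied widely between single ipsilateral libraries. Stat2 was at 1.303, 56.24, 63.58 and 91.97 CPM in PTE+ and between 0.1941 and 32.99 CPM, with a median of 25.39 CPM, in the 8 PTE- libraries. Of the PTE+ libraries 3 were above all PTE- libraries, and the remaining one, a8_10, was near the lowest (log2 fold change 1.42, SE 1.03, edgeR p = 0.183). Ifnar1, the signalling chain of the type I receptor, was at 69.5, 117.6, 124.2 and 256.6 CPM in PTE+. In PTE- it ran from 0.07748 to 112.8 CPM with a median of 70.78 CPM, with a8_11 and a8_14 near 0. The groups overlapped (log2 fold change 1.22, SE 0.98, edgeR p = 0.232), and exact permutation on log2(CPM + 1) gave p = 0.131. In both a8_11 and a8_14 Irf1 was at 0 CPM as well, and these are the PTE- libraries with the fewest genes detected.

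**Figure D4:**
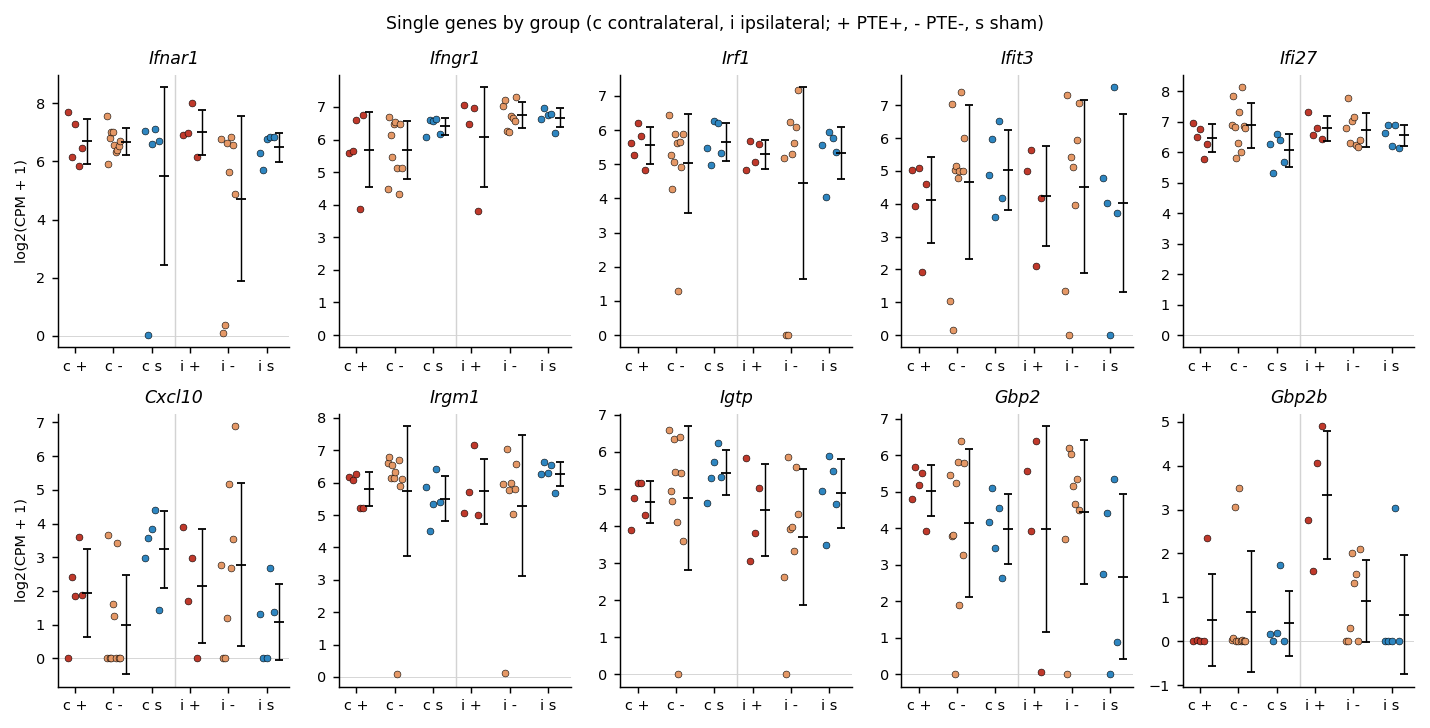
log2(CPM + 1) of 10 genes in every library, by hemisphere and group, with the mean and SD of each group beside the points. Gbp2b lies between 2.012 and 28.77 CPM in ipsilateral PTE+ and at 0 in most sham libraries, Ifi27 is high in all groups, and single libraries at or near 0 widen the SD of Ifnar1, Irf1 and Irgm1.

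Ipsilateral against sham, 0 of 42 genes had p under 0.05 in PTE- (all genes 1.58%) and 0 of 42 in PTE+ (all genes 1.66%), and again 0 after adjustment in edgeR and DESeq2. In PTE- 30 of 42 were higher than sham (median 0.22, all genes 0.02), with 16 of 18 effectors higher (median 0.51). The effector median was 0.17 without PTE- a8_11 and 1.78 without sham a9_10. In PTE+ 21 of 42 were higher (median -0.05, all genes 0.00), and of the GBPs 4 of 6 (median 1.21), none with p under 0.05. The medians of the 42 genes also depended on the sham mouse described above. Without a9_10 they were 0.97 in PTE- and 0.70 in PTE+. The standard errors of single genes were large in all comparisons, with a median between 1.08 and 1.81 and a lowest value between 0.26 and 0.48 on the log2 scale.

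The hemispheres were compared in the 17 mice with both libraries. The main edgeR fit did not use the pairing and treated both libraries of a mouse as separate. Ipsilateral against contralateral in the 12 injured mice, 3 of 45 genes had p under 0.05 (6.67%, all genes 4.25%): Apol9a, Apol9b and Ifngr1. In the 5 sham mice 1 of 45 had p under 0.05 (Apol9a, all genes 2.05%), and the difference between injured and sham mice in their hemisphere contrast gave 1 of 45 (Apol9a, all genes 2.38%). In edgeR 0 genes passed after adjustment. With the mouse as a block 0 of 45 genes had p under 0.05 in all 3 comparisons (all genes 1.85%, 0.331% and 0.814%). DESeq2 gave 1 gene an adjusted p under 0.05, Apol9b in the injured mice (adjusted p = 0.0029).

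Apol9a and Apol9b are near-identical genes on opposite strands of chromosome 15. Their reads could have been divided between them, and each was carried by a few libraries. Apol9a was above 3 counts in 5 of 37 libraries, with 1656 counts in contralateral PTE- a9_15, 426 in ipsilateral sham a9_10, 164 in contralateral PTE+ a9_17, 129 in ipsilateral PTE- a9_13 and 20 in contralateral PTE+ a8_17. Apol9b was above 3 counts in 6, with 872 counts in contralateral PTE+ a8_10, 698 in contralateral sham a8_16, 202 in ipsilateral PTE+ a9_17, 184 in ipsilateral sham a9_10, 130 in contralateral PTE+ a9_17 and 19 in contralateral PTE- a9_12. In contralateral PTE+ against PTE- Apol9b did not pass the filter and had no edgeR test there. The study had listed Apol9b among the top upregulated genes of this contrast in the same libraries. The exact permutation test on log2(CPM + 1) gave a difference of 1.29 (p = 0.0952), and edgeR without the filter gave p = 0.0118 (adjusted p = 0.481). Only PTE+ a9_17 had Apol9b above 3 counts in both hemispheres. In sham mice all 5 contralateral libraries held no Apol9a, and the ipsilateral mean of 1.72 ± 3.84 CPM (SD, n = 5), all from a9_10, was at least 23.9-fold above the floor. The edgeR fit across all genes gave p = 0.032 (adjusted p = 1). In injured mice Apol9a had p = 0.0226 (adjusted p = 0.889) and Apol9b p = 0.0329 (adjusted p = 1), while the p of Apol9a was 1 without PTE+ a9_17 and that of Apol9b 0.174 without PTE- a9_12.

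Ifngr1, the ligand-binding chain of the interferon-gamma receptor, was higher ipsilateral in 9 of 12 injured mice. It ran from 13.61 to 106.8 CPM contralateral, with a median of 67.09 CPM, and from 12.87 to 156.9 CPM ipsilateral, with a median of 102.6 CPM. The ranges overlapped, and the lowest ipsilateral value was that of PTE+ a9_19, whose contralateral value of 106.8 CPM was the highest. The log2 fold change was 0.69 with an SE of 0.33 (edgeR p = 0.0432, adjusted p = 1), with p = 0.00552 without PTE+ a9_19 and p = 0.0995 without PTE- a8_9. The exact sign-flip test over the mice gave p = 0.102. In the 5 sham mice Ifngr1 was higher ipsilateral in 5 of 5, by 0.26 on log2(CPM + 1), with an exact p of 0.0625, the smallest that 5 mice can give. CPM was scaled within each hemisphere, so the sign of a small difference between hemispheres depends on that scaling. In sham a9_11 Ifngr1 was at 70.51 CPM contralateral and 71.91 CPM ipsilateral, but at 65.65 and 63.87 TPM.

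In the sham mice Ifnar2 (0.37) and Irgm1 (0.77) were also higher ipsilateral in 5 of 5, and Irf9 (-0.67) and Cxcl10 (-2.17) lower in 5 of 5, all on log2(CPM + 1) with the same exact p of 0.0625. For Ifnar2 this counts a8_16, where both hemispheres rounded to 72.97 CPM. On the TPM scale Ifnar2 was lower ipsilateral in a8_16 (110.03 contralateral, 70.17 ipsilateral) and in a9_10 (115.02 and 113.6). In injured mice Cxcl10 was higher ipsilateral in 6 of 12, and its hemisphere difference was 3.29 larger in injured than in sham mice (2-sided exact permutation on log2(CPM + 1), p = 0.036, unadjusted). With a pseudocount of 0.1 the exact permutation p was 0.0519, and edgeR gave p = 0.0834. It ran from 0 to 11.7 CPM contralateral and from 0 to 117.5 CPM ipsilateral in the injured mice. The median log2 fold change over the 45 genes was -0.01 in injured mice (22 higher, all genes -0.03) and 0.24 in sham mice (28 higher, all genes 0.00). Without sham a9_10 the sham median was -0.21.

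**Figure D5:**
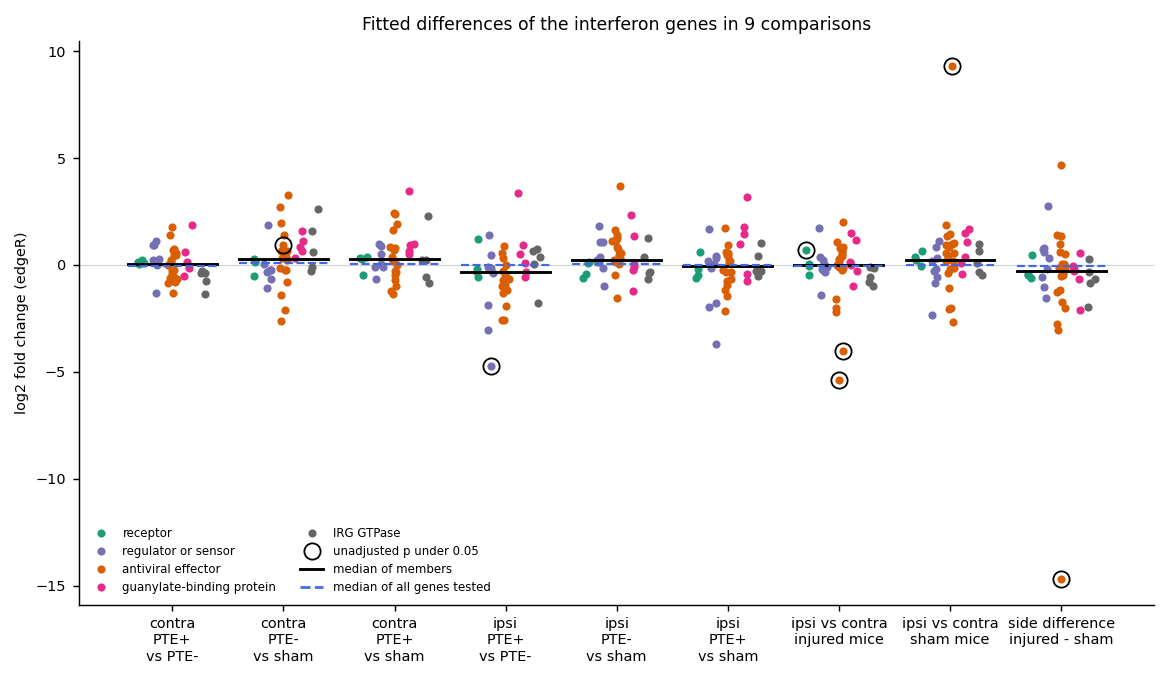
Fitted log2 fold changes (edgeR) of the genes tested in each of the 9 comparisons, coloured by role, with rings for an unadjusted p under 0.05, a solid bar at their median and a dashed bar at the median of all genes. There are 7 rings in all, 4 of them for Apol9a or Apol9b, and the medians lie between -0.32 and 0.30.

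Other genes of the interferon pathway were listed as well, with earlier results known, and 105 of 107 were found. Of the 11 interferon ligands listed, 0 passed the filter on low counts in either hemisphere. Of the signalling genes, sensors and further interferon-stimulated genes tested, 2 of 75 had an unadjusted p under 0.05 in edgeR between contralateral PTE+ and PTE- (0 higher, 2 lower; 2.67%, all genes 2.21%), 5 of 75 between contralateral PTE- and sham (3 higher, 2 lower; 6.67%, all genes 1.54%) and 1 of 75 between contralateral PTE+ and sham (lower; 1.33%, all genes 1.23%). Ipsilateral the counts were 5 of 76 (all lower in PTE+ than in PTE-; 6.58%, all genes 1.75%), 1 of 76 (1.32%, all genes 1.58%) and 2 of 76 (2.63%, all genes 1.66%). Between hemispheres they were 10 of 85 in injured mice (5 higher, 5 lower; 11.8%, all genes 4.25%), 4 of 85 in sham mice (4.71%, all genes 2.05%) and 3 of 85 for the difference between them (3.53%, all genes 2.38%). None had an adjusted p under 0.05 in edgeR.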

How the data were processed

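The authors sequenced SMART-Seq V4 libraries of ACSA-2-captured hippocampal astrocytes, trimmed the reads with Trim Galore 0.6.4 and, per the submitters' notes, quantified genes on mm10 with RSEM 1.2.28 and Bowtie2 2.4.1. The authors deposited expected counts, which are whole numbers here and not normalized. A second deposited table per hemisphere holds TPM, by which the authors expressed levels per transcript length. Symbols, positions and overlaps came from a GENCODE annotation of GRCm38, and promoters from RefSeq GRCm38.p6.

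Groups and hemispheres came from the sample labels, and all 37 libraries were used. Counts were analysed with edgeR 4.0.16 in R 4.3.3 (filterByExpr by group, TMM, quasi-likelihood F test, Benjamini-Hochberg adjustment over all genes tested). The 3 groups of a hemisphere shared 1 fit of 14642 contralateral or 14903 ipsilateral genes, of which 40 and 42 were interferon genes. The hemisphere fit covered 15731 genes (45 interferon genes) in the 34 libraries of 17 mice, and its injured contrast weighted PTE+ and PTE- by 4 and 8 mice. The libraries of a mouse pair by the animal named in the labels. Deviations from the group means correlated with a median of 0.0794 within a mouse (-0.0263 to 0.313) and -0.0163 between mice. Single genes were compared by 2-sided exact permutation, or sign flips over mice, on log2(CPM + 1) with CPM scaled by TMM within each hemisphere, and with a pseudocount of 0.1 as an alternative.

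Detection meant more than 3 counts. Calls used an unadjusted p under 0.05, beside the adjusted p. The study also used an unadjusted p, together with minimum values of TPM and fold change, which were not applied here. The members, the lists of other pathway genes and cell markers, and the tests were chosen with earlier results of these data known. Genes were named if they were receptors, had p under 0.05 in a comparison, ranked among the 3 highest by mean TPM in their role, or were named by the study (Gbp2b, Apol9b, Cxcl10). Others named for their role or level (Isg15, Bst2, Xaf1, Ddx58, Zbp1, Mx1, Irf7, Irgm2, Gbp6 and genes that overlap members) were chosen after their values were seen. The fitting script was tested on simulated data. Alternatives were DESeq2 1.42.0, limma 3.58.1 (voom with quality weights, and log2(TPM + 1)), RLE size factors, no filter on low counts, the mouse as a block, a fit of only the 2 groups compared, the mouse-name prefix (a8 or a9), and each library left out in turn. Added after seeing the data were a covariate for the number of detected genes and leaving out the 3 ipsilateral libraries with the fewest detected genes. Within a hemisphere replicates are separate mice, and p-values measure the spread between them. The main edgeR fit of the hemispheres treated both libraries of a mouse as separate, so its p-values do not take the pairing into account. The fit with the mouse as a block and the sign-flip test do. Figures were drawn with Python 3.11.15.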

Additional observations from a re-analysis of the deposited data

Results flagged for a closer look

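Single libraries stood apart from their group by Dixon's criterion in 32 of 127 groups of values tested. Many of these are genes present in 1 library of a group. The usual chance rate of about 1 in 20 does not hold for such genes with many zeros. The share over all genes was not computed, so the number is only a description. In CPM, they were Gbp2b in contralateral PTE+ a9_19 (4.089), contralateral sham a9_10 (2.319) and ipsilateral sham a9_10 (7.248). Apol9a was high in contralateral PTE+ a9_17 (4.479), contralateral PTE- a9_15 (37.65), ipsilateral PTE- a9_13 (2.767) and ipsilateral sham a9_10 (8.576). Apol9b was high in contralateral PTE- a9_12 (0.4411), contralateral sham a8_16 (14.73), ipsilateral PTE+ a9_17 (3.565) and ipsilateral sham a9_10 (3.704). Ifi211 was high in contralateral PTE+ a9_19 (0.865) and ipsilateral sham a9_10 (0.3624). Ifi47 was high in ipsilateral PTE- a9_16 (52.48), and Ifnar2 in ipsilateral sham a9_9 (124.6).

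Other libraries were low for genes that the rest of the group carried. In contralateral PTE- these were Irf1 in a9_14 (1.445 CPM), Irf9 in a9_20 (1.7 CPM), Stat2 in a9_20 (0.5536 CPM), Irgm1 in a9_14 (0.05781 CPM), Igtp in a9_14 (0.0 CPM) and Ifngr2 in a8_14 (0.1018 CPM). In contralateral sham, Ifnar1 was low in a8_16 (0.02111 CPM). In ipsilateral PTE+ it was Stat2 in a8_10 (1.303 CPM) and Ifnar2 in a9_19 (18.73 CPM). In ipsilateral PTE-, a8_11 was low for Irf9 (0.2583 CPM), Gbp2 (0.0 CPM), Irgm1 (0.07748 CPM) and Ifngr2 (0.0 CPM), and a8_14 for Ifi35 (0.0 CPM) and Ifnar2 (0.5177 CPM). The 2 contralateral PTE- libraries a9_14 and a9_20 detected 11855 and 11756 genes, the fewest of the contralateral libraries.

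The summed level of 41 interferon-stimulated genes in sham a9_10 stood apart in both hemispheres, at 776.9 TPM contralateral (next 393.7 TPM) and 1020 TPM ipsilateral (next 446.5 TPM). The hemisphere contrast of 2 genes differed between injured and sham mice without adjustment. These were Apol9a (edgeR p = 0.00669, adjusted p = 1), which rests on single libraries, and Cxcl10 (2-sided exact permutation p = 0.036, difference 3.29 on log2(CPM + 1)). For Cxcl10 the exact permutation p was 0.0519 with a pseudocount of 0.1, and edgeR gave p = 0.0834.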

How the results depend on the processing

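The comparisons are given in this order: PTE+ against PTE-, PTE- against sham, then PTE+ against sham, first contralateral and then ipsilateral, and last the hemispheres in injured mice, in sham mice and their difference. Members with an unadjusted p under 0.05 numbered 0, 1, 0, 1, 0, 0, 3, 1 and 1. Without a filter on low counts there were 3, 5 and 1 contralateral and 1 each in the ipsilateral PTE- and PTE+ comparisons with sham. With limma on log2(TPM + 1) there were 3, 3 and 1 contralateral, and 3 (PTE+ with PTE-) and 1 (PTE+ with sham) ipsilateral. Voom gave 2 in each contralateral comparison with sham and 3, 1 and 1 ipsilateral. A covariate for the number of detected genes gave 1 in contralateral PTE+ with sham, and 4 (PTE+ with PTE-) and 1 (PTE- with sham) ipsilateral. The 2 groups alone gave 2 in contralateral PTE+ with sham and 0 in ipsilateral PTE+ with PTE-. DESeq2 gave 1 in contralateral PTE+ with sham, 0 in ipsilateral PTE+ with PTE-, 1 in ipsilateral PTE- with sham, 0 in sham mice and 2 in the difference, and 1 adjusted call (Apol9b, injured mice). The mouse as a replicate block gave 0, 0 and 0 between hemispheres, so that the calls of Apol9a, Apol9b and Ifngr1 ended. Without the 3 mice with the fewest detected ipsilateral genes the count was 1 in injured and 0 in sham mice. Leaving out single libraries or mice gave 0 to 1, 0 to 2 and 0 to 1 contralateral, 0 to 2, 0 to 1 and 0 to 2 ipsilateral, 1 to 4 in injured mice, 1 to 2 in sham mice and 0 to 2 in the difference. Of the counts, 117 were within 1.5 times the main count and 57 were not; the cause was not tested. For the 7 gene and comparison pairs with p under 0.05, 86 of 114 alternatives kept p under 0.05 and 28 lost it, while 11 of 119 alternatives gained it for the 6 other pairs that had an exact p under 0.05, and none turned. Apol9b, left out by the filter in contralateral PTE+ with PTE-, had p under 0.05 without the filter and where leaving out PTE+ a8_17, a9_18 or a9_19 let it pass. The median of ipsilateral PTE+ with PTE- was -0.32, but 0.22 with log2(TPM + 1) and 0.04 with voom. Many genes were at 0 in some mice of a group and well above 3 counts in others at similar depth, and the biological coefficient of variation was 1.32 to 1.40.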
